A study of Mus musculus with 9 samples.

Results

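Globin genes and other genes of the red cell lineage were followed in whole pooled mouse embryos of embryonic day 7.5 (E7.5), a gastrulation stage at which blood first forms in the yolk sac. The group held 9 genes: the embryonic globins Hba-x, Hbb-bh1 and Hbb-y, the adult alpha globin Hba-a1, the transcription factors Gata1, Klf1, Nfe2 and Gfi1b, and the haem enzyme Alas2. Their members were all probe sets of the 3 array designs for which the platform annotation gives one of these symbols and no other. This rule found 12 of 36899 probe sets, with 11 on design A, 1 on design B and 0 on design C, and all 9 genes had at least 1.

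Total RNA had been hybridised to 9 one-colour Affymetrix arrays, 1 for each of 3 embryo pools on each of 3 designs of the murine U74v2 set. The conditional knockout pool combined about 50 embryos that lost beta-catenin (Ctnnb1) wherever Cre recombinase was made from the cytokeratin 19 promoter. The floxed/deleted pool held embryos with 1 floxed and 1 deleted allele, and the wild type/floxed pool held embryos with 1 normal and 1 floxed allele. Both were taken as controls. Every pool thus carried at least 1 floxed or recombined allele, and no pool with 2 unmodified alleles was analysed here. The labels state neither the strain, nor the number of embryos in the control pools, nor whether those pools carried Cre, and with Cre the floxed/deleted embryos would have the genotype of the knockout. The designs carry different probe sets and are not replicates of each other, so each value below comes from 1 array and no difference has a replicate check. The number of arrays limits the precision, and no p-value was computed.

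In the mouse, the first red cells arise from mesoderm in the blood islands of the yolk sac. These primitive erythroid cells carry haemoglobin made of the embryonic alpha-type chain of Hba-x and the embryonic beta-type chains of Hbb-bh1 and Hbb-y, and adult alpha chains are also made in them. GATA1 binds GATA motifs and KLF1 binds CACCC motifs in the promoters and enhancers of globin and haem genes, and ALAS2 carries out the first step of haem synthesis in red cells. The globin genes are therefore commonly used to judge how far yolk sac blood has developed.

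The motifs that these factors bind can be seen in the sequence just before the start of the genes. RefSeq sequence of assembly GRCm38.p6 was at hand for 7 of the 9 members, and the 250 bases before the gene start are printed for the globins and for Klf1, 5′ to 3′ along the gene. Capitals mark the GATA motif (AGATAA or TGATAA), and, likewise on either strand, CACCC as well as CCAAT and also TATAAA.
Hba-x (embryonic alpha-type globin, chr11:32276350-32276599, plus strand): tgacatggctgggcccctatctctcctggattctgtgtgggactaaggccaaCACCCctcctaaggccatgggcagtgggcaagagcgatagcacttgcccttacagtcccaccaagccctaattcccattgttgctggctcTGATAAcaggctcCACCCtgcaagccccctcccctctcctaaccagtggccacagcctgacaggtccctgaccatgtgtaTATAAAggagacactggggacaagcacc
Hba-a1 (adult alpha globin, chr11:32283422-32283671, plus strand): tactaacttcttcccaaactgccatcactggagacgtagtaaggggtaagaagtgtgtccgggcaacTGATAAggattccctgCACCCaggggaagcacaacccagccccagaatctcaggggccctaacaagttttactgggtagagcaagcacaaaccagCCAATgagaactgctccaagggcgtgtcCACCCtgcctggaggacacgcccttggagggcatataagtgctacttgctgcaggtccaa
Hbb-y (embryonic beta-type globin, chr7:103853208-103853457, minus strand): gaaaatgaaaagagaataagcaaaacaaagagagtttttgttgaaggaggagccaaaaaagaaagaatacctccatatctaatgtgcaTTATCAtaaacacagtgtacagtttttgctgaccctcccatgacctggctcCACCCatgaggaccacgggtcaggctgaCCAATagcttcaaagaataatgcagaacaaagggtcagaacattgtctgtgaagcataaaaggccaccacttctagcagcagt
Klf1 (transcription factor, chr8:84901732-84901981, plus strand): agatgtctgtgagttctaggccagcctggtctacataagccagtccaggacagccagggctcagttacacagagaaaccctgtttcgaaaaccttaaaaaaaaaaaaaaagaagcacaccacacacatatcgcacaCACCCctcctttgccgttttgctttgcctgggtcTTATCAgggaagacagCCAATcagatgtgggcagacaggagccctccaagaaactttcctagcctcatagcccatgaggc

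Each of these 4 windows held a GATA motif and at least 1 CACCC. The first base of the GATA motif lay 108 bases before the start of Hba-x, 183 before Hba-a1, 162 before Hbb-y and 80 before Klf1. In all, 6 of the 7 member windows held a GATA motif, Gata1 being the exception, against 16.6% of 32851 mouse windows of the same length. CACCC was found in 7 of 7 member windows and in 52.0% of all windows. CCAAT was found in the windows of Hba-a1, Hbb-y, Klf1 and Gfi1b and in 33.8% of all windows. TATAAA was found before Hba-x, 28 bases from the start, and on the opposite strand before Alas2, against 12.4% of all windows. The core of the NF-E2 motif (TGANTCA) was in 0 of 7 member windows and in 6.75% of all windows. A match describes these letters only and is not evidence of a bound site. A CACCC inside another capital run was counted each time, as in Alas2, where 3 stand side by side on the opposite strand.

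The signal of a probe set is its deposited intensity after the 3 arrays of a design were scaled to the same trimmed mean. The pooled median of each design served as a floor, at 57.3 on design A, 90.0 on design B and 80.9 on design C, and lower values were raised to it before a fold or a log2 difference was taken. The floor is a convention of the analysis, not a detection limit. A probe set counted as measured when its value passed the floor on at least 1 of the 3 arrays, and a pool stood apart when it was at least 1.5-fold lower, or higher, than both other pools. A fold with 1 side at the floor is a lower bound and is written "at least". Signals are compared between pools for the same probe set and never between probe sets.

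The embryonic globins lay below the floor in all 3 pools, most of them far below it, with the exception of Hbb-bh1 in floxed/deleted, and the label of the group as primitive erythroid was thus not borne out by its defining genes. Of the 12 member probe sets, 7 lay below the floor on all 3 arrays and 1, that of Hba-a1, lay above it on all 3. On design A these were 6 and 1 of 11, where 40.0% of all probe sets lay below the floor on all 3 arrays and 41.1% above it on all 3. The probe set on design B lay below its floor, as did 33.5% of that design. Hba-x, Hbb-y, Nfe2 and Gfi1b passed the floor in no pool, Hbb-bh1 and Alas2 in the floxed/deleted pool alone, Gata1 and Klf1 in 2 pools. No array of blood was among the 9, so the signal these probe sets give in a tissue rich in red cells was not measured here. In pooled whole embryos, fewer cells of a type and less RNA per cell cannot be told apart.

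**Figure D1:**
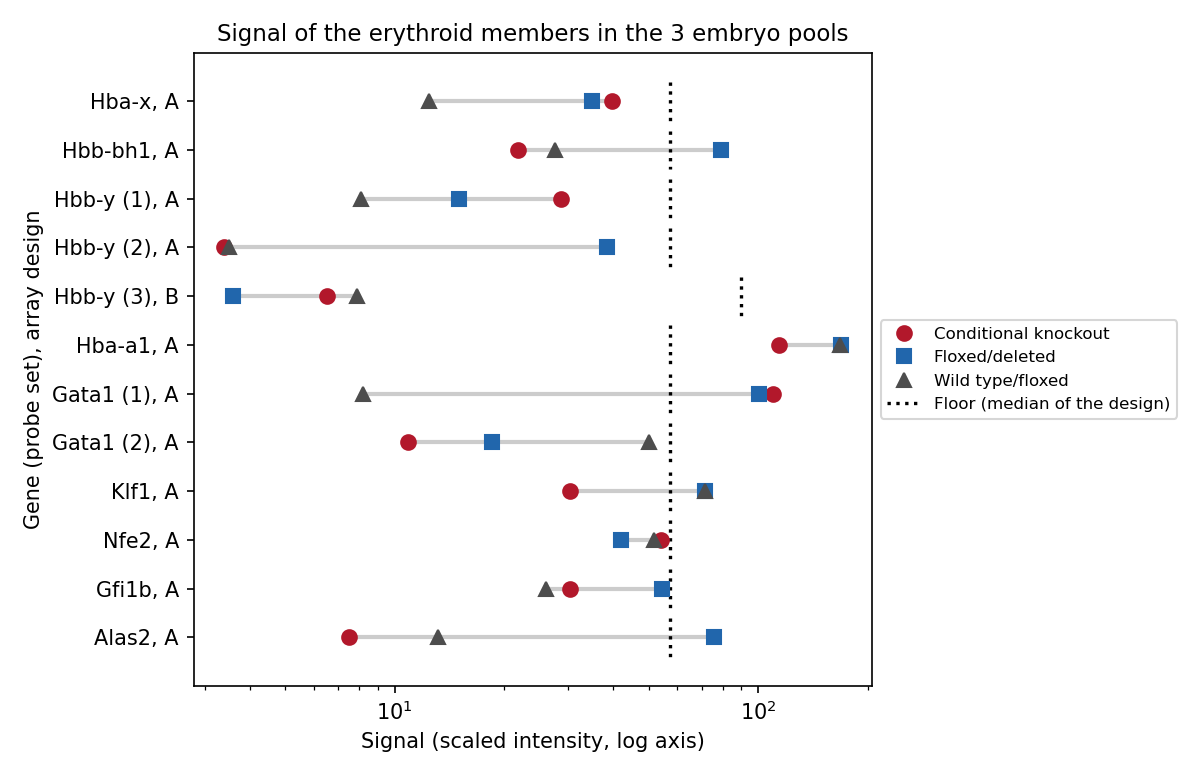
Signal (scaled intensity, log axis) of the 12 member probe sets in the conditional knockout (circles), floxed/deleted (squares) and wild type/floxed (triangles) pools, 1 array per point. Dotted marks give the floor of the design, 57.3 on A and 90.0 on B; the probe set of Hba-a1 has all 3 points to the right of the floor, and 7 probe sets have none there.

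Hba-x, which encodes the embryonic alpha-type chain zeta, gave a signal of 39.7 in knockout embryos, 35.0 in floxed/deleted embryos and 12.4 in wild type/floxed embryos. All 3 values were below the floor of 57.3, so no fold was given. The wild type/floxed pool was the lowest, and the knockout and the floxed/deleted pool were close to each other.

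Hbb-bh1, the first beta-type globin to be switched on in primitive red cells, had a signal of 21.8 in the knockout, 79.0 in floxed/deleted embryos and 27.7 in wild type/floxed embryos. It was the only embryonic globin with a value above the floor. The floxed/deleted pool was at least 1.38-fold higher than both others, short of 1.5-fold, and the knockout did not differ from the wild type/floxed pool above the floor. Among the 1891 single-symbol probe sets of design A with all 3 values above 4 times the floor, the 5 nearest to it in log2 knockout over each control were those of Eif1a, Nsun2, Xrcc1, Rnf5 and Myh9, at log2 distances of 0.05 to 0.09 over the 3 pools. Since 2 of its 3 values were set to the floor, this likeness describes the floored pattern only.

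Hbb-y, the embryonic epsilon-type beta globin, had 3 probe sets, and none passed the floor. The first on design A read 28.7 in the knockout, 15.0 in floxed/deleted embryos and 8.10 in wild type/floxed embryos. The second on design A read 3.40, 38.4 and 3.50 in the same order. The probe set on design B read 6.51, 3.60 and 7.90. The knockout was the highest pool on the first, the floxed/deleted pool on the second and the wild type/floxed pool on the third, so the 3 probe sets gave no common order. The first carries a suffix (f) that marks probes shared with related sequences. The third carries another suffix (i), which was grouped with it in the analysis.

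Summed over Hba-x, Hbb-bh1 and the brighter Hbb-y probe set of design A, without a floor, the embryonic globin signal was 90.3 in the knockout, 128.9 in floxed/deleted embryos and 48.2 in wild type/floxed embryos. Of the 9 values summed, 8 lay below the floor, so no fold was given for the sum, and the order of the pools in it is not a readout of stage.

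Hba-a1, an adult alpha globin gene that is also transcribed in primitive red cells, was the member with signal above the floor in every pool. It read 113.8 in the knockout, 169.4 in floxed/deleted embryos and 168.1 in wild type/floxed embryos. The controls nearly coincided with the knockout 1.48-fold below the nearer of them, just short of 1.5-fold. The log2 differences from the controls were -0.57 and -0.56. As a measure of spread in place of replicates, the log2 difference between both controls had an SD of 0.43 over the measured probe sets of design A.

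Other probe sets for the adult globins did not share this order. A probe set of design A assigned to both adult alpha globin genes read 73.7 in the knockout, 166.3 in floxed/deleted embryos and 70.3 in wild type/floxed embryos, with only the floxed/deleted pool high. One of design C with the same assignment read 30.9, 49.7 and 358.5, with only the wild type/floxed pool above the floor. The alpha globin pseudogene Hba-ps3 read 120.0, 106.5 and 89.9, highest in the knockout. A probe set assigned to the adult beta globin genes together read 188.3, 142.4 and 197.5, lowest in floxed/deleted embryos, and a second read 12.0, 5.30 and 3.70. The single-symbol probe set of the adult beta globin Hbb-b2 read 5.70, 44.1 and 7.20, below the floor throughout. The difference of the knockout at Hba-a1 was therefore seen on 1 probe set and, of the 2 others for alpha globin, on neither in the same form.

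**Figure D2:**
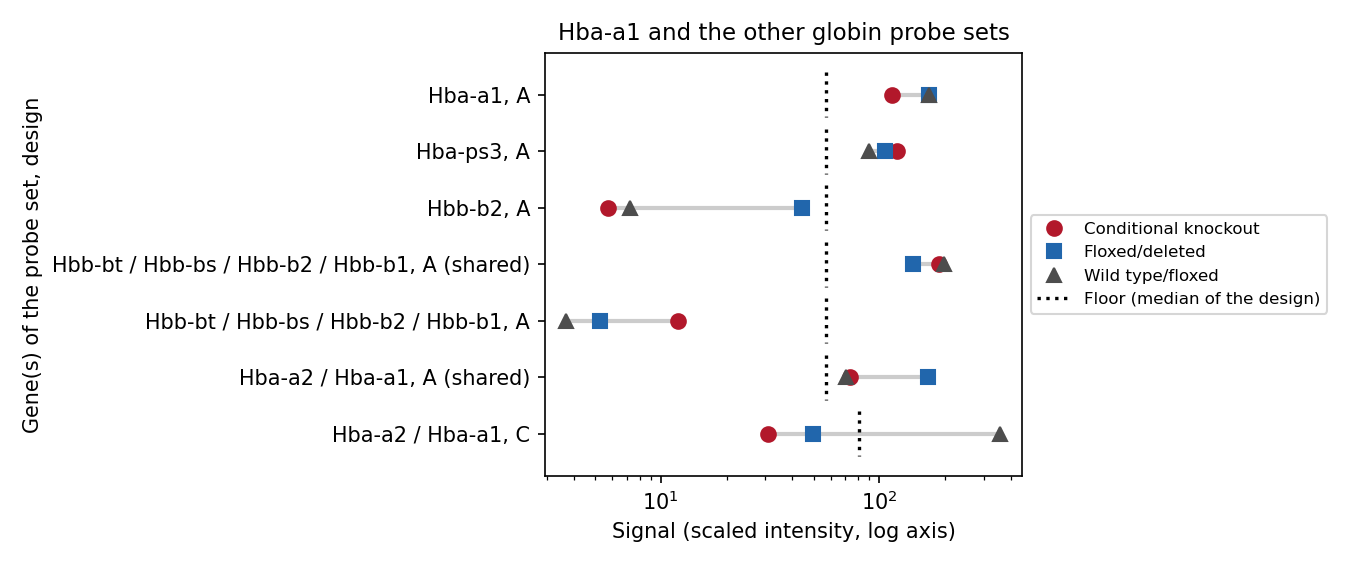
Signal (scaled intensity, log axis) of Hba-a1 and of the 6 other globin probe sets in the 3 pools, 1 array per point, with dotted marks at the floor of the design; "shared" marks probes shared with related sequences. The 3 probe sets for adult alpha globin differ in which pool is high: both controls for Hba-a1 (169.4 and 168.1), floxed/deleted on the other of design A (166.3) and wild type/floxed on design C (358.5).

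When the same search for like patterns was run on Hba-a1, a choice made after its values were seen, the 5 nearest probe sets were those of Pwp1, Bag6, Blmh, Rab5if and Pttg1, at log2 distances of 0.03 to 0.08. Pwp1 read 231.3 in the knockout, 350.1 in floxed/deleted embryos and 339.2 in wild type/floxed embryos. None of the 5 is a globin gene.

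Gata1, the zinc finger factor needed for red cell and megakaryocyte development, had 2 probe sets on design A that gave opposite orders. The brighter read 110.0 in the knockout, 100.4 in floxed/deleted embryos and 8.20 in wild type/floxed embryos. The knockout and the floxed/deleted pool were alike, and the wild type/floxed pool was at least 1.75-fold lower than both. The other, which shares probes with related sequences, read 10.9, 18.6 and 50.1, with the wild type/floxed pool the highest and every value below the floor.

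Klf1, the CACCC-binding activator of globin genes, read 30.4 in the knockout and 71.5 in each of the control pools. The knockout was at least 1.25-fold lower than both, a log2 difference of -0.32, and the controls did not differ. Both control values were close to the floor of 57.3, and the knockout did not reach 1.5-fold. Without a floor the log2 difference was -1.23, past 1.5-fold, so the size of this difference is set by the floor. Like Hba-a1, Klf1 was lowest in the knockout with close controls.

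Nfe2, which encodes the larger subunit of the globin enhancer-binding factor NF-E2, read 54.0 in the knockout, 41.9 in floxed/deleted embryos and 51.8 in wild type/floxed embryos. Gfi1b, a repressor needed for red cell and megakaryocyte development, read 30.3, 54.6 and 26.1 in that order. Neither passed the floor in any pool, and the floxed/deleted pool was the lowest for Nfe2 and the highest for Gfi1b.

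Alas2, the red cell form of the first enzyme of haem synthesis, read 7.51 in the knockout, 75.6 in floxed/deleted embryos and 13.2 in wild type/floxed embryos. Its only member probe set carries a suffix that marks probes shared with related sequences. The floxed/deleted pool was at least 1.32-fold higher than both others, and the other 2 pools were below the floor. Its housekeeping counterpart Alas1 passed the floor everywhere, at 156.8 in the knockout, 165.5 in floxed/deleted embryos and 217.7 in wild type/floxed embryos.

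Of the 5 measured member probe sets, all on design A, 0 stood apart in the knockout, where 3.54% of the 7451 measured probe sets of that design were lower and 3.29% higher. In the floxed/deleted pool 0 stood apart, against a background of 2.67% lower and 3.96% higher. In the wild type/floxed pool Gata1 alone was lower, against 2.86%, and 0 were higher, against 2.54%. The median log2 difference between the knockout and the mean of the controls was -0.23 over the 5 measured members, with a range from -0.57 to 0.54. Over all 12385 measured single-symbol genes it was -0.02. The difference between floxed/deleted and wild type/floxed had a median of 0.40 over the members and 0.00 over all genes. The members did not share a pattern: for Hba-a1 and Klf1 the controls nearly coincided and the knockout was lower, while for Hbb-bh1 and Alas2 floxed/deleted alone passed the floor, which fixes the knockout's difference from the mean of the controls at about -0.23 and -0.20.

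The low signals were also read without a floor, an approach chosen after the data were seen, over the 8 member probe sets of design A whose mean signal was under the floor. The floxed/deleted pool was at least 1.5-fold higher than both others for 4 of them, Hbb-bh1, the second of Hbb-y, Gfi1b and Alas2, where 22.3% of 6334 such probe sets were, and lower for 0, against 16.5%. The knockout was lower for 2, Alas2 and the second probe set of Gata1, against 21.9%, and higher for 1, the first of Hbb-y, against 14.8%. The wild type/floxed pool was lower for 2, Hba-x and the first of Hbb-y, against 18.4%, and higher for 1, the second of Gata1, against 17.1%. Klf1, whose mean signal was just above the floor, was not among the 8. Differences of this size between pools were common among dim probe sets, and with 8 probe sets the counts for the knockout and for wild type/floxed were near the background. Over all 11 member probe sets of design A, the knockout was the highest for 4 and the lowest for 6, where it was for 31.1% and 35.7% of all 12422 probe sets of the design. Floxed/deleted was the highest for 5 and the lowest for 1, against 36.4% and 31.7%, and the wild type/floxed pool the highest for 2 and the lowest for 4, against 32.5% and 32.7%.

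The wider red cell programme was covered by 119 other genes in 6 lists, of which 94 had a single-symbol probe set and 77 were measured. The brightest probe set stood for each gene. The knockout was at least 1.5-fold lower than both controls for 5 of the 77 and higher for 6, while over all genes it was lower for 716 and higher for 811 of 12385. Over the measured probe sets of all 3 designs the shares were 5.64% lower and 7.34% higher. The floxed/deleted pool was lower for 1 and higher for 7, against 5.69% and 8.84%, and the wild type/floxed pool was lower for 4 and higher for 2, against 5.67% and 8.20%. The median log2 difference of the knockout was -0.01. Of the 12 other globin genes listed, 1 had a probe set of its own and 0 were measured.

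Among 24 erythroid transcription factors and cofactors, 20 were measured, the knockout was lower for 2 and higher for 1, and the median log2 difference was 0.02. Ldb1, which bridges GATA1 complexes at enhancers and promoters, read 327.0 in the knockout, 557.8 in floxed/deleted embryos and 623.3 in wild type/floxed embryos. In the knockout it was 1.71-fold below the nearer control, and Ldb1 is active in many tissues besides blood. Bcl11a, a repressor of embryonic globin genes, read 452.6, 101.6 and 194.6 on the brightest of its 3 probe sets. The knockout was 2.33-fold higher than the nearer control there, the floxed/deleted pool 1.92-fold lower than the nearer of the others, and the other 2 probe sets were below the floor. The oxidative stress factor Nfe2l2 read 165.1, 169.4 and 92.5, with the wild type/floxed pool 1.79-fold lower.

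Factors that act before the globin genes in blood formation were looked at next, chosen after their values were seen. Lmo2, a partner of GATA1 and TAL1, read 153.9 in the knockout, 149.3 in floxed/deleted embryos and 167.5 in wild type/floxed embryos. Gata2, active in early blood progenitors, read 98.7, 117.2 and 66.4. Etv2, which drives mesoderm towards blood and endothelium, read 234.6, 155.2 and 138.5, with the knockout 1.51-fold higher than the nearer control. The receptor gene Kdr of the same progenitors read 142.1, 137.5 and 132.5. On their brightest probe sets these 4 genes were above the floor in every pool. Tal1, needed for all blood formation, read 45.9, 9.79 and 8.60 and passed the floor in no pool, with the knockout the highest. Runx1 passed it in the knockout alone, at 100.1, against 59.1 in floxed/deleted embryos and 17.2 in wild type/floxed embryos on the brighter of its 2 probe sets. Lyl1, a blood factor of the same list as Lmo2, went the other way. It read 41.7, 135.5 and 206.0 on design C, at least 1.675-fold lower in the knockout than in the nearer control. Fli1 and Cd34, from the list of endothelium and haemangioblast markers, passed the floor in no pool.

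Haem synthesis and export genes numbered 14 measured of 18 listed, with 0 lower and 2 higher in the knockout and a median of -0.03. Hmox1, the haem-degrading oxygenase, read 513.0 in the knockout, 304.9 in floxed/deleted embryos and 267.8 in wild type/floxed embryos, with the knockout 1.68-fold higher than the nearer control. A second probe set of Hmox1 on design B was below the floor. Uros, an enzyme in the middle of the haem pathway, read 183.4, 22.6 and 95.6 on design B, with the knockout 1.92-fold higher than the nearer control. Its probe set on design A read 93.6, 111.5 and 48.7 and did not share that order. Alad, the next enzyme after ALAS2, was 1.59-fold higher in floxed/deleted than in the nearer pool on design C, while its probe set on design A read 201.2, 261.0 and 251.2. The biliverdin reductase gene Blvrb was at least 3.35-fold lower in wild type/floxed on its brightest probe set, but a second one on design C read 72.7, 118.0 and 145.7, highest in that pool.

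Iron uptake and storage genes were all measured among the 14 with a probe set, with 2 lower and 3 higher in the knockout and a median of 0.09. The transferrin receptor gene Tfrc, through which red cell precursors take up iron, read 726.4, 752.3 and 811.4 in the knockout, floxed/deleted and wild type/floxed pools, on its brightest probe set, and 248.1, 237.5 and 228.3 on design C. Its probe set on design B read 409.4, 180.0 and 433.1, lowest in floxed/deleted, and a dimmer one on design A read 35.9, 53.2 and 96.1, so its probe sets did not share an order. Slc25a37, the mitochondrial iron importer mitoferrin-1 of red cell precursors, read 129.1, 313.9 and 407.9 on design C, 2.43-fold lower in the knockout than in the nearer control. Of its probe sets on design B, one read 253.0, 172.6 and 230.4 and the other 146.0, 21.2 and 39.5, and the knockout was the highest pool on both. Steap3, a ferric reductase of endosomes, read 337.5, 147.5 and 167.3, with the knockout 2.02-fold higher. Tfr2, the second transferrin receptor, read 119.0, 457.8 and 175.5, with floxed/deleted 2.61-fold higher, and a second probe set read 34.9, 193.6 and 27.7, again highest there. The iron reductase gene Cybrd1 was at least 3.44-fold lower in wild type/floxed than in the nearer pool on design C, but on design B one of its probe sets read 56.2, 57.5 and 128.0, highest in wild type/floxed.

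Red cell membrane and cytoskeleton genes gave 13 measured of 26 listed, with 0 lower and 0 higher in the knockout and a median of -0.05. The anion exchanger gene Slc4a1 read 300.4 in the knockout, 233.7 in floxed/deleted embryos and 347.1 in wild type/floxed embryos on design C. On design A it read 32.3, 62.2 and 72.7. On their brightest probe sets, 9 of the 13 measured genes lay above the floor in every pool. Among them, the spectrin gene Sptb read 244.1, 179.2 and 365.2, and the ankyrin gene Ank1 read 264.4, 283.0 and 196.0. The red cell membrane genes Rhag, Ermap, Gypc, Icam4 and Xk passed the floor in no pool on their brightest probe sets. Mpp1, a membrane scaffold gene, was 2.04-fold lower in wild type/floxed than in the nearer pool, and the adducin gene Add1 was 2.01-fold higher there. The blood group gene Kel was at least 1.80-fold higher in floxed/deleted, the only pool above the floor, on a probe set that shares probes with related sequences. Its other probe set read 13.2, 59.85 and 54.2, below the floor throughout.

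Red cell enzymes and other erythroid genes gave 16 measured of 23 listed, with 1 lower and 0 higher in the knockout, 4 higher in floxed/deleted and a median of -0.15. Over all genes, 927 of 12385 were higher in floxed/deleted. Hagh, a glyoxalase of the detoxifying kind, read 60.1 in the knockout, 115.4 in floxed/deleted embryos and 98.9 in wild type/floxed embryos, with the knockout 1.65-fold lower. Gpx1, a glutathione peroxidase abundant in red cells, read 81.6, 176.1 and 98.0, and Nt5c3, a nucleotidase of maturing red cells, read 96.1, 223.5 and 104.0. The floxed/deleted pool was 1.80-fold and 2.15-fold higher for these genes, and at least 2.77-fold higher for the signalling gene Stat5b on the brighter of its 2 probe sets. The other probe set of Stat5b passed the floor in the knockout alone, and that of Nt5c3 read 80.5, 103.3 and 150.4, highest in wild type/floxed. On their brightest probe sets, 11 of the 16 measured genes lay above the floor in every pool, among them Epor, Car2, Bpgm and Prdx2. The erythropoietin receptor gene Epor read 102.3, 77.2 and 86.4, and Car2 read 838.3, 625.4 and 478.5. Car1 and Hemgn, both strongly expressed in maturing red cells, passed the floor in no pool on their brightest probe sets.

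**Figure D3:**
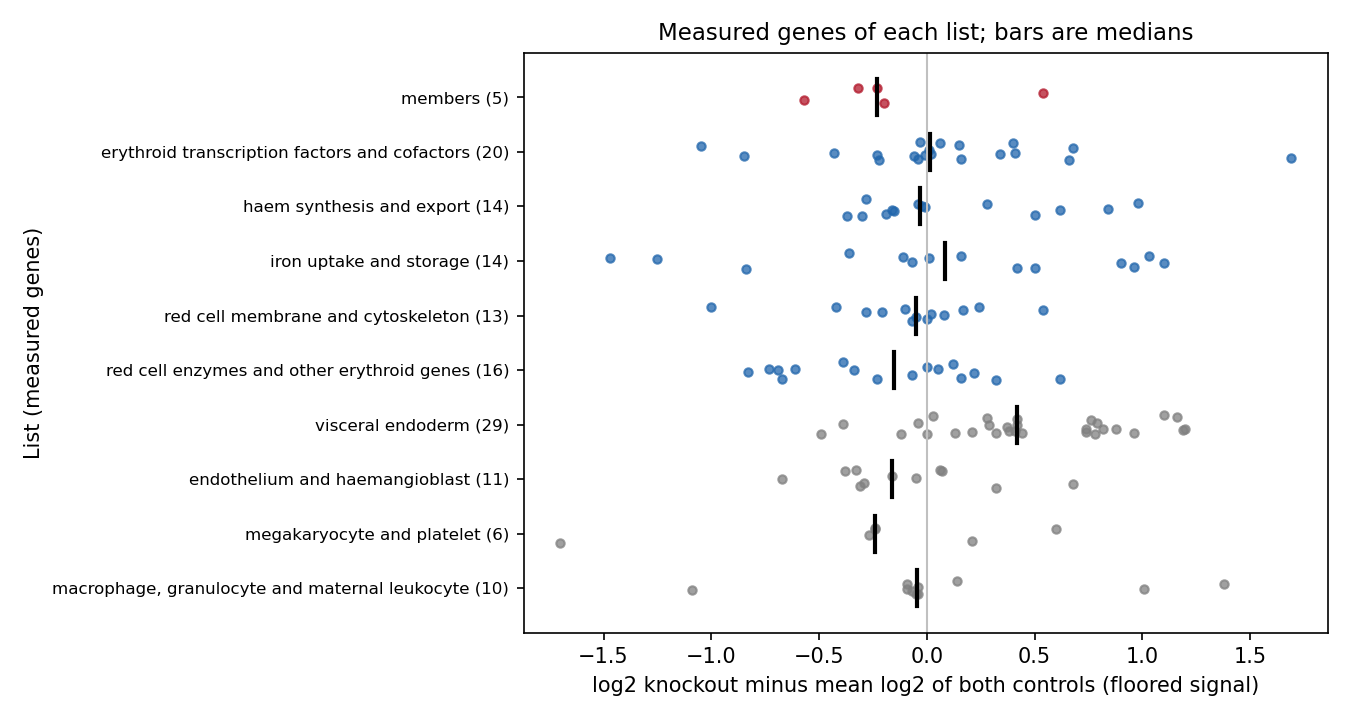
Log2 difference of the conditional knockout from the mean of both controls for the measured genes of 10 lists, 1 point per gene from its brightest probe set, with black bars at the list medians and the number of measured genes in brackets. The members (-0.23) and the 5 erythroid lists (-0.15 to 0.09) have medians near 0, and the visceral endoderm markers stand at 0.42.

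Markers of other tissues were read from the same arrays. Markers of the visceral endoderm, the outer layer of the yolk sac, mostly gave more signal in the knockout. Of 29 measured markers 8 stood apart there as higher and 0 as lower, where over all genes 811 of 12385 were higher. The median log2 difference was 0.42, against -0.02 over all genes. By any amount, the knockout was above both controls for 21 markers and below both for 3, Sox17, Spink1 and Lrp2. Over all genes these counts were 4147 and 3263. The list was drawn up with earlier results of these data known. In floxed/deleted 4 markers were lower, where 696 of 12385 genes were. Their summed signal on design A was 40388 in the knockout, 25256 in floxed/deleted embryos and 27018 in wild type/floxed embryos. Apoa1, an apolipoprotein of this layer, made 12794, 6809 and 6545 of that sum, so the sum leans on a few bright genes. On design B it read 16084, 7330 and 6811, and Apom, another, was 2.07-fold higher in the knockout on design A. Foxa2, an endoderm forkhead factor, read 141.2, 33.8 and 121.5, and the fibrinogen chain gene Fga read 169.1, 62.8 and 197.4, at least 2.12-fold and at least 2.09-fold lower in floxed/deleted. The part of this difference in the values of the erythroid genes was not tested.

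Endothelium and haemangioblast markers gave 11 measured of 19 listed, with 0 lower and 1, Etv2, higher in the knockout. Over the list, 3 were higher in wild type/floxed and 2 in floxed/deleted, where 815 and 927 of 12385 genes were. The vascular receptor gene Flt1 was 2.59-fold higher in wild type/floxed than in the nearer pool on design B, while on design C it read 169.5, 106.7 and 150.7, and Cdh5, Tek and Tie1 of mature endothelium passed the floor in no pool. The endothelial genes Esam and Plvap read 48.5, 12.5 and 153.2, and 246.8, 234.6 and 411.1, highest in wild type/floxed, though a second probe set of Plvap was highest in the knockout. Sox18, a vascular transcription factor, read 87.5, 144.8 and 17.2 on design C, highest in floxed/deleted. On design A one probe set read 39.0, 59.5 and 96.2, highest in wild type/floxed. Another there read 66.3, 19.0 and 42.3, highest in the knockout, so its probe sets gave no common order. Of 6 measured megakaryocyte and platelet markers, 1 was lower in the knockout, Treml1, at 84.5 against 287.8 and 298.6 in the controls, and Clec1b, a platelet receptor gene, read 180.0, 321.4 and 147.5. Allantois and extraembryonic mesoderm markers gave 13 measured genes, with 2 lower and 0 higher in the knockout. These were Foxf1, a mesoderm forkhead factor, at 186.9 against 311.8 and 465.2, and Msx2, a homeobox factor, at 97.8 against 186.2 and 160.9. Of the markers called in floxed/deleted, where 2 were lower, Tdo2, a tryptophan dioxygenase, read 342.3, 112.1 and 252.9 on design C, with floxed/deleted 2.26-fold lower, and Pmp22, a membrane protein gene, read 211.9, 137.5 and 219.3, with floxed/deleted 1.54-fold lower. On 2 of the 3 other probe sets of Tdo2 floxed/deleted was also the lowest pool.

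Each design held probe sets for a different set of the maternal tissue markers, so their counts at the floor are not comparable between designs. On design A, 16, 13 and 15 of 19 leukocyte markers and 12, 11 and 12 of 12 decidua markers were at the floor in the knockout, floxed/deleted and wild type/floxed pools. On design C, 2, 3 and 2 of 5 leukocyte markers and 1, 2 and 2 of 3 decidua markers were, and on design B 0 of 2 decidua markers in any pool. Those 2 on design B were Hand2 and Bmp2, and whether their signal was maternal was not tested. On their brightest probe sets Igfbp1, Cyp11a1, Prap1, Ctla2a and Ctla2b passed the floor in no pool, and Prl8a2 passed it in the knockout alone. Of 10 measured leukocyte markers, 1 was lower and 2 were higher in the knockout. Coro1a, an actin-binding protein gene of leukocytes, read 52.8, 120.7 and 122.4 in the 3 pools, and the complement gene C1qb of macrophages read 115.2, 43.7 and 30.6. A second probe set of each gene was below the floor in every pool. Laptm5, a lysosomal membrane gene of blood cells, read 445.7, 270.7 and 109.1 on design C, with the knockout 1.65-fold higher and wild type/floxed 2.48-fold lower than the nearer pool. On design A one of its probe sets read 110.8, 55.3 and 20.2, and another read 26.9, 28.8 and 58.9, highest in wild type/floxed. Of 5 measured decidua markers 0 stood apart in the knockout. Wnt4, a signalling gene of the decidua, read 525.7, 244.2 and 902.3 on design C, 2.15-fold below the nearer pool in floxed/deleted and 1.72-fold above it in wild type/floxed. That probe set carries a suffix (r) that was grouped in the analysis with those for shared probes. The one on design A read 18.6, 11.4 and 16.0, below the floor throughout. The part of maternal cells in the values of the erythroid genes was not tested.

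The targeted gene was only partly informative about the labels. Ctnnb1 read 1377 in the knockout, 1508 in floxed/deleted embryos and 1773 in wild type/floxed embryos, the order of the number of intact alleles, but with differences under 1.5-fold in whole embryos, where the Cre of the knockout depended on the cytokeratin 19 promoter. Whether its probes lie inside the deleted part of the gene could not be told. The ratio of 5′ to 3′ signal for beta-actin, a sign of RNA integrity, was 0.570 in the knockout against 0.655 and 0.696 in the controls on design A, and was lowest in the knockout on the other designs too. For Gapdh on design A it was 1.09, 1.07 and 1.16. The part of RNA integrity in the lower knockout values of Hba-a1 and Klf1 was not tested.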

How the data were processed

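The deposited values were 1 intensity per probe set and array on a linear scale, and per the labels each array held total RNA of 1 embryo pool. The summary method is not stated, and present or absent calls were not used. Gene symbols came from the platform annotation: of 36899 probe sets, 29197 had 1 symbol, 724 several and 6978 none.

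The 3 arrays of a design were brought to the same mean after trimming 2% at each end, values below the pooled median were raised to it, and log2 was taken. Medians of the arrays ran between 54.9 and 60.7 for design A, between 87.3 and 93.1 for B and between 77.9 and 83.4 for C. Control probe sets were left out of all counts. With 1 array per pool and design no test across arrays was possible. Python 3.11.15, numpy 2.4.6, pandas 2.3.3 and matplotlib 3.10.9 were used.

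The members and gene lists were chosen with earlier results of these data known. The text names every member, and from each list up to 4 genes that stood 1.5-fold apart in 1 pool, by the size of the fold from the nearer pool (Bcl11a, Laptm5 and Wnt4 qualified in 2 pools), except where it says that a gene was chosen after its values were seen. Other genes without a fold (Alas1, Tfrc, Slc4a1, Rhag, Ermap, Gypc, Icam4, Car1, Hemgn, Sox17, Spink1, Lrp2, Cdh5, Tek, Tie1, Hand2, Bmp2, Igfbp1, Cyp11a1, Prap1, Ctla2a, Ctla2b and Prl8a2) were also chosen after their values were seen. The same holds for Sptb, Ank1, Xk, Epor, Car2, Bpgm and Prdx2.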

Additional observations from a re-analysis of the deposited data

How the results depend on the processing

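With the deposited values as they were, equal medians or quantile normalization, the counts of members in each pool and of other erythroid genes in the knockout stayed within 1.5 times, and the medians within the spread between the controls. Other erythroid genes lower in floxed/deleted went from 1 to 3 with equal medians and 2 with quantile normalization. Results moved with the floor, since most members lie under it. With the floor at the 30th percentile, 1 member was lower in the knockout, 3 were higher in floxed/deleted and 2 were lower in wild type/floxed. Of the other erythroid genes, 8 were lower and 13 higher in the knockout. With values raised to that floor before summing, the log2 ratio of embryonic globin signal, knockout over wild type/floxed, was 0.32. The main sum used no floor and gave 0.91, so the measure changed along with the floor. At the 70th percentile, 0 members were lower in wild type/floxed and 3 other erythroid genes were lower in the knockout. There every summed globin value was raised to the floor, so the globin ratios to floxed/deleted and wild type/floxed were both 0 by construction. With no floor, 2 members were lower and 1 higher in the knockout, 3 were higher in floxed/deleted and 3 lower in wild type/floxed, 14 other erythroid genes were lower and 13 higher in the knockout, and the members' median log2 difference of floxed/deleted from wild type/floxed was 1.06. The share of all genes called in one direction also grew with a lower floor: genes lower in the knockout were 5.78% of all measured, 9.50% with the floor at the 30th percentile, 3.28% at the 70th and 14.4% with none, and genes lower in wild type/floxed 5.63%, 9.26%, 2.96% and 12.9%. Genes higher in floxed/deleted were 7.48% of all measured, 11% with the floor at the 30th percentile and 12.2% without a floor. Those higher in the knockout were 6.55%, 8.88% at the 30th percentile, 4.54% at the 70th and 9.91% with no floor. Keeping only probe sets that pass the floor in every pool, or a 2-fold threshold, left 0 members lower in wild type/floxed, and 2-fold left 1 other erythroid gene lower and 2 higher in the knockout. Against floxed/deleted alone, 13 other erythroid genes were lower in the knockout, and against wild type/floxed alone 13 were higher and 1 member was higher, counts that need only 1 control to differ. For other erythroid genes lower in the knockout, the mean over probe sets gave 2 and design A gave 3, with 2 higher. Leaving out probe sets with the suffixes f, s, r or i, of which f and s mark shared probes, gave 3. The share of all genes was not computed for 1 control alone, the 2-fold threshold, the every-pool filter or these choices of probe set. Counts under those settings therefore have no general rate beside them. Without probe sets of those suffixes the log2 globin ratio to floxed/deleted was -1.23. These ratios rest on values that mostly lie below the floor. Where no cause is named, the cause was not tested.

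Over the alternatives run, Hba-a1 in the knockout ranged from -0.57 to -0.33 against the controls, and the median of the members from -0.57 to 0.00. Without any filter on low signal the summed globin ratios are unchanged by construction and have no value of their own. No replicate could be left out. No paired analysis was possible because each pool had 1 array per design.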
